A study of Homo sapiens with 12 samples.

Results

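The 10 genes described here encode the machinery that takes a cell from G1 into S phase: the D-type cyclins CCND1 and CCND3 with their kinases CDK4 and CDK6, the E-type cyclins CCNE1 and CCNE2 with their kinase CDK2, and the transcription factors E2F1, E2F7 and E2F8. They were chosen by name from the gene column of the authors' tables, and all 10 stand among the 14862 genes of the normalized count table and passed the filter on low counts. The cells were hTERT-RPE1, a line of human retinal pigment epithelium immortalized with telomerase, labelled as the parental line with genotype WT. The siRNA dose was 20 nM and polyA RNA was taken after 48 hours. The group siNeg received a negative control, siCENPF a reagent that targets CENPF, siFOXM1 one that targets FOXM1, and siCENPF+siFOXM1 both. Each group had 3 libraries numbered 1 to 3, 12 in all. The sequences of the siRNAs, the number of duplexes in each and the dose of each within the combination are not given in the sources used here. FOXM1 is a transcription factor known for driving genes of G2 and mitosis, and CENPF is a kinetochore protein made mainly in the same phases. The study set out to profile expression after loss of either or both.

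In G1, D-type cyclins switch on CDK4 and CDK6, which phosphorylate the retinoblastoma protein and loosen its hold on E2F factors. E2F1 then activates genes for DNA replication, among them the E-type cyclins, and cyclin E with CDK2 phosphorylates the retinoblastoma protein further. E2F7 and E2F8 are atypical E2F factors that repress many of the same targets later in S phase.

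The siRNAs lowered their targets, since CENPF stood at 10.8% of the siNeg mean in siCENPF and 15.8% in siCENPF+siFOXM1, and FOXM1 at 15.2% in siFOXM1 and 17.7% in siCENPF+siFOXM1. Reads counted in genes numbered 13671250 to 35411230 per library, with siNeg 3 and siCENPF 3 (31302177) the deepest. Of 9 markers of differentiated pigment epithelium, RPE65 and TYR were listed at 0 FPKM (reads scaled for depth and length) in every library and RLBP1, TYRP1, LRAT and TTR did not exceed 0.0371, whereas BEST1 reached 26.9 to 62.4, PMEL 0.520 to 0.692 and MITF 0.721 to 1.28. Of 3 epithelial keratins KRT8 stood at 14.9 to 25.5 and KRT18 at 27.2 to 41.6, and KRT19 did not exceed 0.0379. Among 15 markers of keratinocytes, blood, endothelium and neural cells, 4 stood in the normalized count table: KRT14 (0.840 to 2.69), CD68 (0.243 to 0.581), PECAM1 (0.0062 to 0.105) and MAP2 (1.13 to 1.47). Exons shared with other genes were not examined for these markers, and strand use in counting is not stated. A marker value, that of BEST1 included, may thus hold reads of another gene. Nothing in the labels says that libraries of a group came from separate cultures, so p-values measure the spread between these libraries, which may be technical.

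CDK6 and its comparison with against without CENPF siRNA were singled out beforehand, with earlier results of these data known. The CDK6 values therefore describe a chosen gene. CDK6 was the member with the largest difference in siCENPF against siNeg, in siCENPF+siFOXM1 against siFOXM1, and with against without CENPF siRNA. In siCENPF+siFOXM1 against siNeg CCNE2 differed more (-0.39, against -0.33 for CDK6). CDK6 was lower in all 6 libraries given CENPF siRNA than in any of the 6 without it. It was the only one of the 10 members whose libraries separated in this way. E2F1, CCNE2, CCND1, CCND3 and E2F7 lay lower in 1 or more comparisons, by 0.18 to 0.39 on the log2 scale where they passed a test. CDK4, CDK2, CCNE1 and E2F8 passed no test that used all 12 libraries. The first analysis, limma without regard to replicate number, called 0 of the 10 members in any comparison (Benjamini-Hochberg adjusted p under 0.05 over 14857 genes). At an unadjusted p under 0.05 it picked 1 member against siNeg with siCENPF (CDK6), 0 with siFOXM1 and 1 with siCENPF+siFOXM1 (E2F1), where 5.53%, 7.77% and 7.36% of all genes were so picked. At the adjusted threshold the share of all genes called was 0.337% in siCENPF against siNeg, 0.66% in siFOXM1 and 0.458% in siCENPF+siFOXM1. It was 0.00673% for CENPF siRNA added to FOXM1 siRNA, 0.0808% for the reverse, 0.188% with against without CENPF siRNA and 0.66% with against without FOXM1 siRNA. Libraries with the same number deviated together, and a fit that compares libraries within a number (the replicate block) called 3, 4 and 6 members against siNeg. All of those calls were lower, where 1.66%, 4.23% and 3.72% of all genes were called lower. With 1 library left out the counts of members called lower ran from 2 to 3, 2 to 5 and 3 to 6. With 1 number left out they ran from 2 to 3, 0 to 3 and 3 to 6. In siFOXM1 CDK6 was in addition called higher without siNeg 2, siCENPF 1, siCENPF 2 or number 2. The block called 1 member lower when CENPF siRNA was added to FOXM1 siRNA (0.162% of all genes) and 0 for the reverse (1.03%). It called 2 lower with against without CENPF siRNA (1.91%), 4 lower and 1 higher with against without FOXM1 siRNA (5.67% and 5.05%), and 0 for the interaction (0.734% lower). Lower within all 3 numbers were 6 members in siCENPF, 8 in siFOXM1 and 7 in siCENPF+siFOXM1, where 17.6%, 22% and 21.3% of all genes were so, and 2 when CENPF siRNA was added to FOXM1 siRNA (15.8%). The 3 comparisons share the siNeg libraries. In bulk RNA, fewer cells expressing a gene and less RNA per cell cannot be told apart.

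**Figure D1:**
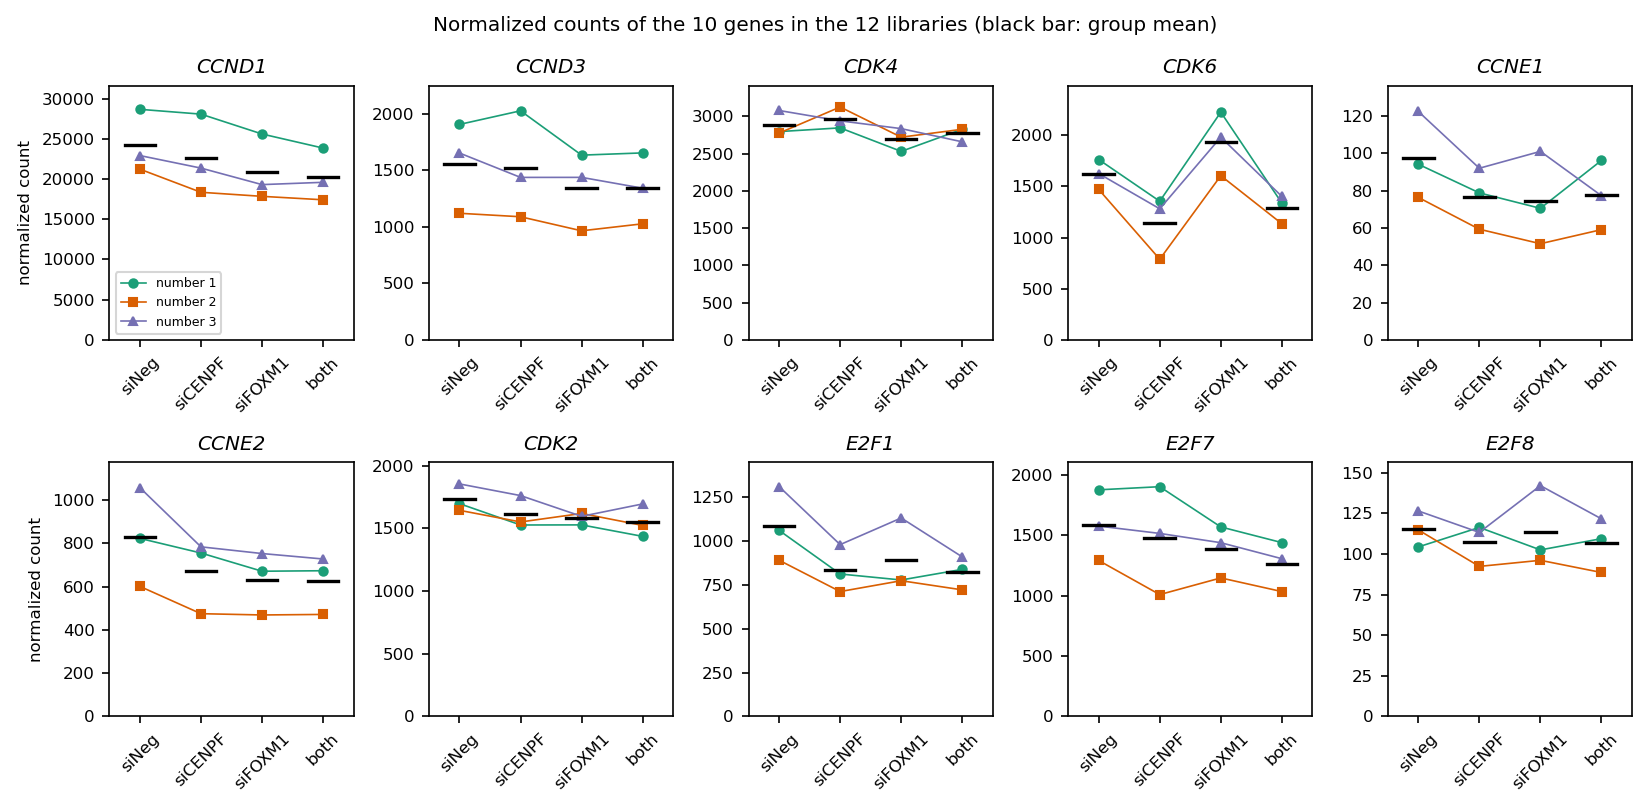
Normalized counts (y axis, from 0) of the 10 genes in the 4 groups (x axis, "both" for siCENPF+siFOXM1), with 1 point per library, lines joining libraries of the same replicate number and black bars for group means. CDK6 shows all libraries with CENPF siRNA, from 788 to 1402, below all those without, from 1471 to 2227, while number 2 is the lowest line for 7 of the genes in every group.

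Levels between genes were compared per length, as CPM (counts scaled to library depth) per kilobase of merged exons. CCND1 was the most abundant member in siNeg, at 264 ± 35.8 (SD, n = 3), followed by CDK4 at 47.9 ± 3.02. CDK2 at 23.4 ± 1.47 and E2F1 at 22.8 ± 4.26 came next and overlapped, as did CCND3 at 14.1 ± 3.33 and E2F7 at 13.2 ± 2.12. CCNE2 stood at 9.87 ± 2.64, CDK6 at 6.95 ± 0.457, CCNE1 at 1.99 ± 0.439 and E2F8 at 1.46 ± 0.156. The ranges of CCNE2 and CDK6 overlapped, as did those of E2F7 and CCNE2, and the lowest CCNE1 library (1.605) stood next to the highest E2F8 library (1.596). With the length of the longest coding transcript in place of merged exons, CCND3 (34.2 ± 8.07) moved above E2F1 (22.8 ± 4.26) and no other place in the order changed. Within pairs of relatives, CCND1 made up 94.97% ± 0.749 of the summed D-type cyclin level of CCND1 and CCND3, and CCNE2 made up 83.1% ± 0.844 of the E-type cyclin level. As means of the 4 groups these shares ran from 94.8% to 94.97% and from 82.4% to 83.5%.

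The D-type cyclins differed more between replicate numbers than between groups. CCND1, on chromosome 11 (hg38 69641087 to 69654474), had normalized counts of 28693, 21244 and 22937 in siNeg libraries 1 to 3, and of 28096, 18365 and 21376 in siCENPF. It had 25621, 17860 and 19321 in siFOXM1, followed by 23869, 17431 and 19607 in siCENPF+siFOXM1. Number 1 was the highest and number 2 the lowest in each of the 4 groups, so that each siRNA group overlapped siNeg, but within every number both groups given FOXM1 siRNA lay below siNeg. The log2 difference was -0.22 in siFOXM1 (limma adjusted p = 0.878, and 0.00208 with the replicate block) and -0.26 in siCENPF+siFOXM1 (0.867, and 0.000454 with the block). Over the 6 libraries with against the 6 without FOXM1 siRNA it was -0.18 (95% interval with the block -0.25 to -0.12, adjusted p = 0.00036), a call kept with any 1 library or any 1 number left out. CENPF siRNA alone gave -0.11 (adjusted p = 0.176 with the block). FOXM1 siRNA added to CENPF siRNA gave -0.15 (adjusted p = 0.138 with the block, and 0.037 without siCENPF 2). In the siFOXM1 comparison the call was lost without the 4 libraries of number 3 (adjusted p = 0.0783). Exons of LTO1 on the opposite strand cover 10.3% of the merged exons of CCND1.

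CCND3, the other D-type cyclin measured (chromosome 6, 41934933 to 42050357), followed CCND1 at a lower count. Its values were 1906, 1120 and 1653 in siNeg, 2027, 1089 and 1437 in siCENPF, 1634, 965 and 1438 in siFOXM1, followed by 1654, 1027 and 1342 in siCENPF+siFOXM1. Number 1 was again the highest in every group, with up to 1.86 times the count of number 2 in the same group. The difference from siNeg was -0.21 in siFOXM1 (limma adjusted p = 0.952, and 0.0363 with the block) and -0.21 in siCENPF+siFOXM1 (0.964, and 0.0408 with the block). Those calls were lost with 4 and with 8 of the 12 libraries left out in turn. The libraries were siNeg 1 and 3 and siFOXM1 1 and 2 in both comparisons. In the second they were also siFOXM1 3 and the 3 siCENPF+siFOXM1 libraries, with adjusted p up to 0.194 and 0.197. The second difference holds no siFOXM1 library, so leaving one out changed only the shared estimate of spread and the adjustment over genes. The first call was also lost without any 1 number and the second without number 1 or 3 (up to 0.172 and 0.351). With against without FOXM1 siRNA, CCND3 fell by 0.19 with the block (adjusted p = 0.00745), a call kept with any 1 library left out and lost without number 1 (adjusted p = 0.147).

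CDK4 and CDK6 are partner kinases of the D-type cyclins. CDK4 (chromosome 12, 57747727 to 57756013) had 2795, 2775 and 3079 normalized counts in siNeg, 2845, 3125 and 2940 in siCENPF, 2530, 2721 and 2835 in siFOXM1, followed by 2827, 2826 and 2658 in siCENPF+siFOXM1. These were the steadiest values of the set, within 1.12 times of each other in any group. No siRNA group separated from siNeg, while siCENPF+siFOXM1 lay below siCENPF without overlap, as 3.73% of all genes did. With against without CENPF siRNA, CDK4 differed by 0.04 on the log2 scale (95% interval with the block -0.04 to 0.12, adjusted p = 0.651), and with against without FOXM1 siRNA by -0.10 (interval -0.18 to -0.02, adjusted p = 0.119, and 0.0432 without siNeg 2). Exons of TSPAN31 on the opposite strand cover 1369 bases, or 43.2%, of the merged exons of CDK4, and whether reads were counted by strand is not known here, so reads of the pair may be mixed.

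CDK6 (chromosome 7, 92604921 to 92836594) had normalized counts of 1764, 1471 and 1626 in siNeg libraries 1 to 3 and of 1356, 788 and 1281 in siCENPF. It had 2227, 1605 and 1982 in siFOXM1, followed by 1337, 1135 and 1402 in siCENPF+siFOXM1. The highest value was in siFOXM1 and the lowest in siCENPF, and all libraries with both siRNAs lay below siNeg. The 6 libraries with CENPF siRNA averaged 1217 ± 229 (SD) against 1779 ± 279 in the 6 without it, or 68.4%. Of all genes tested, 0.384% were lower in this way without overlap. Among the group comparisons CDK6 was the member below without overlap in siCENPF against siNeg (4.44% of all genes), in siCENPF+siFOXM1 against siNeg (6.58%) and in siCENPF+siFOXM1 against siFOXM1 (3.57%). No member separated the libraries with from those without FOXM1 siRNA (0.942% lower). The CDK6 difference with against without CENPF siRNA was -0.56 on the log2 scale (SE 0.132, 95% interval -0.85 to -0.27, limma adjusted p = 0.214). With the replicate block the same difference had an SE of 0.0605, an interval of -0.69 to -0.43 and an adjusted p of 7.86e-06, where 1.91% of all genes were called lower. DESeq2 on the recovered reads gave an adjusted p of 0.00873 without a block, and edgeR's quasi-likelihood test gave 0.188. The call with the block was kept with any 1 library left out (log2 difference -0.60 to -0.48, adjusted p at most 0.000178) and without any 1 number.

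The difference of CDK6 with against without CENPF siRNA is the mean of 2 comparisons with no library in common. CDK6 was singled out for that mean with the data known, so their likeness is not a repeat of the result. The 2 comparisons also share the replicate numbers and the estimate of spread. Against siNeg, the log2 differences within numbers 1, 2 and 3 were -0.38, -0.90 and -0.34, with a fitted value of -0.54 (limma adjusted p = 0.613, and 0.000468 with the block). Added to FOXM1 siRNA, they were -0.74, -0.50 and -0.50, with a fitted value of -0.58 (adjusted p = 1 without the block and 0.00299 with it). In both settings all 3 numbers were lower, and the interaction of the siRNAs was -0.04 (95% interval with the block -0.29 to 0.22, adjusted p = 0.981). CDK6 was the only member called when CENPF siRNA was added to FOXM1 siRNA (0.162% of all genes were called lower). That call was lost without siFOXM1 2 (adjusted p = 0.0683) and without number 1 (0.163), whereas the call against siNeg was kept with any 1 library or number left out. Without siCENPF 2, the lowest library, the difference from siNeg was -0.39, and without number 2 it was -0.36.

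**Figure D2:**
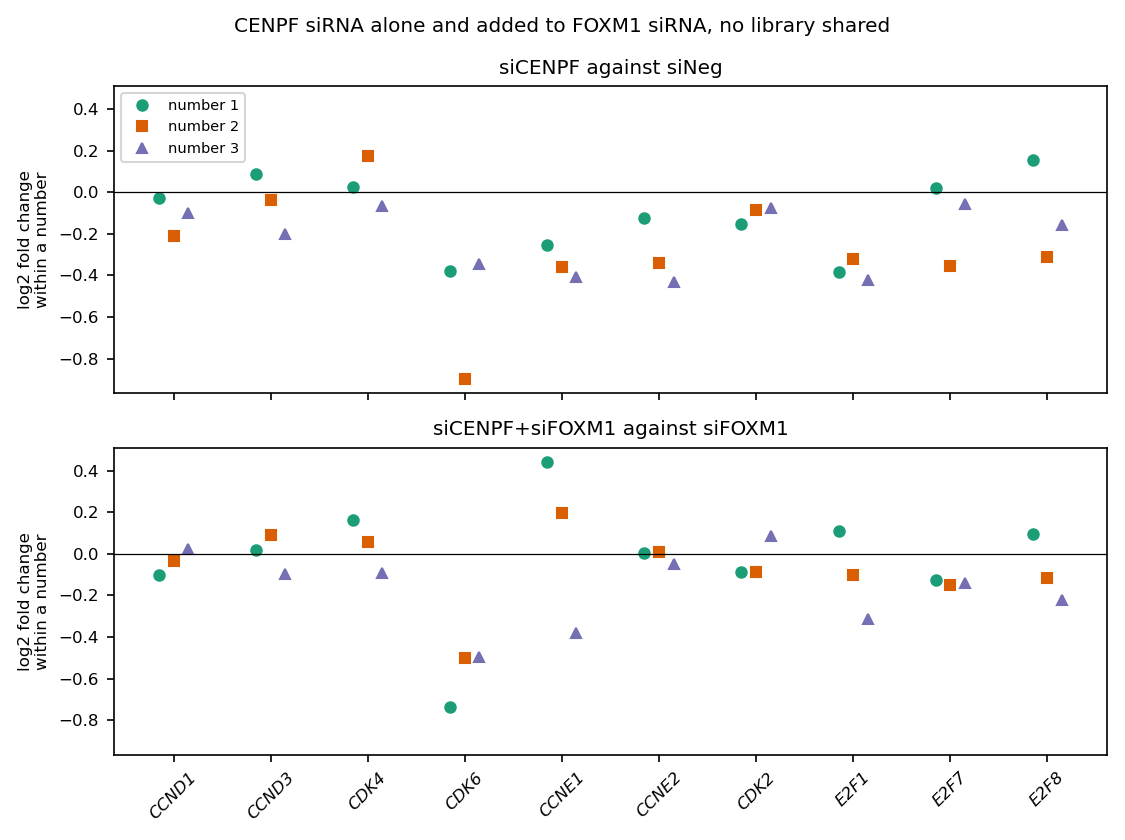
Log2 fold change of each gene (x axis) within each replicate number (y axis) for CENPF siRNA against siNeg (top) and for CENPF siRNA added to FOXM1 siRNA (bottom), which use different libraries. CDK6 lies between -0.34 and -0.90 in all 6 comparisons, and CDK4 lies on both sides of 0.

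With FOXM1 siRNA the CDK6 values lay on the other side. Within numbers 1, 2 and 3 it was higher in siFOXM1 than in siNeg by 0.34, 0.13 and 0.28 on the log2 scale, with a fitted value of 0.25 (limma adjusted p = 0.857, and 0.081 with the block), and the groups overlapped. This difference passed with the block when siNeg 2, siCENPF 1 or siCENPF 2 was left out (adjusted p = 0.0167, 0.0461 and 0.004) and without number 2 (0.0027). It stayed at 0.25 without siCENPF 1 or siCENPF 2, which enter this comparison only through the shared estimate of spread. Added to CENPF siRNA, FOXM1 siRNA gave -0.02, 0.53 and 0.13, so the sign was not the same in each number. Over the 6 libraries with against the 6 without FOXM1 siRNA the rise of 0.23 passed with the block (adjusted p = 0.0178, with 5.05% of all genes called higher). It failed with 6 of the 12 libraries left out in turn, namely siNeg 1 and 3, siFOXM1 1 and 2, and siCENPF+siFOXM1 2 and 3, with adjusted p up to 0.0622, and without number 3 (0.0669). With both siRNAs CDK6 differed from siNeg by -0.33 (limma adjusted p = 0.804, and 0.0204 with the block). This call was lost without siNeg 2, siCENPF+siFOXM1 1 or siCENPF+siFOXM1 3, with adjusted p up to 0.135, and without number 1 (0.138).

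As a share of the summed CDK4 and CDK6 level per length, CDK6 held 14.02%, 12.0% and 12.0% in siNeg libraries 1 to 3 and 11.0%, 6.09% and 10.1% in siCENPF. It held 18.6%, 13.2% and 15.3% in siFOXM1, followed by 10.9%, 9.40% and 12.0% in siCENPF+siFOXM1. Every library with CENPF siRNA was below every library without it, but siCENPF+siFOXM1 3 at 11.997% and siNeg 3 at 12.011% nearly met. CDK6 alone separated the libraries in this way, as 0.384% of all genes did, so the share is not a separate result. How many other pairs of genes would separate was not counted. The CDK4 level in the share may hold reads of TSPAN31. With the longest coding transcript as the length the group means were 9.14% in siNeg, 6.46% in siCENPF, 11.4% in siFOXM1 and 7.70% in siCENPF+siFOXM1.

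The 5 genes whose values followed CDK6 most closely over the 12 libraries, after the mean of each replicate number was subtracted, were XPO6 (r = 0.985), MAML1 (0.960), CMTM4 (0.959), MYO10 (0.959) and CYP27C1 (0.954), among 10099 genes with a mean of at least 100 normalized counts. These are correlations over 12 libraries that share the group structure, given as a description. XPO6 is an exportin that carries actin out of the nucleus, and it ranged from 3023 ± 536 normalized counts (SD, n = 3) in siCENPF to 3523 ± 446 in siFOXM1. MAML1, a coactivator of Notch signalling, stood at 845 ± 72.5 in siNeg, 659 ± 108 in siCENPF, 998 ± 35.1 in siFOXM1 and 773 ± 55.8 in siCENPF+siFOXM1. The correlation of CDK4 with CDK6 on the same scale was -0.655, and those of the other members lay between -0.210 and 0.396, except CCNE1, whose mean was too low to be compared.

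The RefSeq promoter windows, 250 bases before to 50 after a transcription start on GRCh38.p14, were available for 6 of the 10 members in 9 windows: CCND3, CDK4, CDK6, CCNE1, E2F1 and E2F7. CCND1, CCNE2, CDK2 and E2F8 had no window. The upstream of the 2 CDK6 windows, chr7:92836524-92836823 on the minus strand, is shown because CDK6 was the member that separated the libraries. It is 78.0% G and C and holds none of the words searched, so it is printed without capitals.
CDK6 promoter: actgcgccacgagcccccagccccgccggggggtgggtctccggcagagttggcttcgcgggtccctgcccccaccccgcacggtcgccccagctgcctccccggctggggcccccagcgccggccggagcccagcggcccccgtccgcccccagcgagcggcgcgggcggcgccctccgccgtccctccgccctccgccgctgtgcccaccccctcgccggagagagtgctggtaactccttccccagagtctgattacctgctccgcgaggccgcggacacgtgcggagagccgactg
The words searched on both strands were TTTCGCGC, TTTGGCGC, TTTCCCGC and TTTGCCGC for E2F, TTTGAA for the cell cycle homology region, and GTAAACA for forkhead factors such as FOXM1. An E2F word was in 1 of the 9 member windows (E2F1) and in 3.31% of 35116 windows of 300 bases. The cell cycle homology word was in 0 of the 9 and 15.2% of all, and the forkhead word was in 1 of the 9 (CCND3) and 3.42% of all. A match describes letters in the window and is not a measured binding site, and a window without a match says only that these letters are not in it.

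The E-type cyclins are the partners of CDK2. CCNE2 (chromosome 8, 94879770 to 94896678) had normalized counts of 823, 601 and 1058 in siNeg, 755, 475 and 784 in siCENPF, 671, 469 and 753 in siFOXM1, followed by 673, 471 and 728 in siCENPF+siFOXM1. Number 3 was the highest and number 2 the lowest in every group, each group overlapped siNeg, and within each number all 3 siRNA groups lay below siNeg. The difference from siNeg was -0.30 in siCENPF (limma adjusted p = 1, and 0.0191 with the block), -0.38 in siFOXM1 (0.840, and 0.00141 with the block) and -0.39 in siCENPF+siFOXM1 (0.857, and 0.00115 with the block). Adding CENPF siRNA to FOXM1 siRNA gave -0.01 (95% interval with the block -0.17 to 0.14), and the interaction was 0.29 (interval 0.07 to 0.51, adjusted p = 0.382). With against without FOXM1 siRNA CCNE2 fell by 0.24 with the block (adjusted p = 0.00413). The siCENPF call was lost without siNeg 3, siCENPF 2 or siCENPF 3, with adjusted p up to 0.147, and without number 2 (0.0656). All 4 calls were lost without the libraries of number 3, the number that holds the 2 deepest libraries, with adjusted p of 0.288 in siCENPF, 0.0904 in siFOXM1, 0.0999 in siCENPF+siFOXM1 and 0.122 over the 6 against 6 libraries. Exons of INTS8 on the opposite strand cover 37.1% of the merged exons of CCNE2, so its reads may hold some of that gene.

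CCNE1 (chromosome 19, 29811898 to 29824308) was measured from only 37 to 223 reads per library. Its normalized counts were 94.2, 76.4 and 122.6 in siNeg, 78.9, 59.3 and 92.1 in siCENPF, 70.6, 51.6 and 101 in siFOXM1, followed by 96.3, 59.1 and 77.3 in siCENPF+siFOXM1. The estimates against siNeg in those 3 groups were -0.34, -0.42 and -0.33, and on the FPKM table -0.18, -0.20 and -0.16. Their intervals were wide, for example -0.79 to -0.04 in siFOXM1 with the block, and none passed (adjusted p = 0.353, 0.177 and 0.312 with the block). CDK2 (chromosome 12, 55966769 to 55972784) had 1696, 1643 and 1853 in siNeg, 1526, 1550 and 1760 in siCENPF, 1527, 1618 and 1595 in siFOXM1, followed by 1435, 1522 and 1694 in siCENPF+siFOXM1. Each siRNA group was below siNeg within all 3 numbers, and siFOXM1 did not overlap siNeg, which held for 6.83% of all genes in the lower direction. The differences were -0.10, -0.13 and -0.16, of which none passed (adjusted p = 0.380, 0.182 and 0.0923 with the block). Exons of AC025162.1 on the opposite strand cover 14.5% of the merged exons of CDK2, and those of PMEL cover 2.29%.

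E2F1 (chromosome 20, 33675487 to 33686404), the activator of the set, had normalized counts of 1062, 891 and 1312 in siNeg and of 813, 712 and 980 in siCENPF. It had 778, 774 and 1133 in siFOXM1, followed by 839, 722 and 910 in siCENPF+siFOXM1. Number 3 was the highest and number 2 the lowest in each group, each group overlapped siNeg, and all 3 siRNA groups were below siNeg within each number. In siCENPF the differences within numbers 1 to 3 were close together, at -0.39, -0.32 and -0.42, and the fitted value was -0.38 (limma adjusted p = 0.917, and 0.002 with the block). This call was kept with any 1 library or number left out. In siFOXM1 the difference was -0.29 (limma adjusted p = 0.800, and 0.0126 with the block), which was lost without siNeg 1, siNeg 3 or siFOXM1 1, with adjusted p up to 0.151, and without number 1 (0.211) or 3 (0.0567). In siCENPF+siFOXM1 it was -0.39 (0.678, and 0.000927 with the block), a call lost without number 3 (0.0635). The combination differed from CENPF siRNA alone by -0.01 (95% interval with the block -0.17 to 0.14).

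With against without CENPF siRNA, E2F1 fell by 0.24 with the block (adjusted p = 0.00645). Added to FOXM1 siRNA, CENPF siRNA gave 0.11, -0.10 and -0.32 within numbers 1 to 3, and a fitted -0.10 (adjusted p = 0.805 with the block). The interaction was 0.27 (interval with the block 0.06 to 0.49, adjusted p = 0.393), so the effects alone and in combination were not shown to differ. The 6 against 6 call was lost without number 3 (adjusted p = 0.192). With against without FOXM1 siRNA E2F1 differed by -0.15 (adjusted p = 0.0642 with the block), which passed without siNeg 2 (0.038) or siFOXM1 3 (0.0443). The promoter window of E2F1, chr20:33686336-33686635 on the minus strand, is shown because it was the only member window with an E2F word. Capitals mark its 2 words, TTTGGCGC and, on the other strand, TTTGCCGC, whose first letters in the window lie 20 and 33 bases before the start.
E2F1 promoter: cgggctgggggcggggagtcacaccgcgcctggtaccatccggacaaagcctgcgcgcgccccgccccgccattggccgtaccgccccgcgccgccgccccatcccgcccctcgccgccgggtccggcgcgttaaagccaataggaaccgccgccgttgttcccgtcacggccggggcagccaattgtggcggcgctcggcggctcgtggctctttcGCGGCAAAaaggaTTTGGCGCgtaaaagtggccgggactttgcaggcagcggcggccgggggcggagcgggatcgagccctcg

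The atypical repressor E2F7 (chromosome 12, 77021247 to 77065580) had 1876, 1290 and 1576 normalized counts in siNeg, 1902, 1008 and 1515 in siCENPF, 1568, 1146 and 1438 in siFOXM1, followed by 1438, 1033 and 1305 in siCENPF+siFOXM1. Number 1 was the highest in every group, as for the D-type cyclins, and each group overlapped siNeg. With both siRNAs the differences from siNeg were -0.38, -0.32 and -0.27 within numbers 1 to 3, and the fitted value was -0.32 (limma adjusted p = 0.864, and 0.00395 with the block). This call was lost without siCENPF+siFOXM1 1 (adjusted p = 0.0536) and without number 1 (0.0668). Neither siRNA alone gave a call, at -0.13 in siCENPF (adjusted p = 0.360 with the block) and -0.19 in siFOXM1 (0.109), and the interaction was -0.01 (interval with the block -0.21 to 0.20). Without siCENPF 2 the siFOXM1 difference passed at an unchanged -0.19 (0.0295), since siCENPF enters it only through the shared estimate of spread. Also without siCENPF 2, that of FOXM1 siRNA added to CENPF siRNA passed (-0.31, 0.00777). Without siCENPF 1 that with against without CENPF siRNA did (-0.18, 0.0301). With against without FOXM1 siRNA E2F7 fell by 0.19 with the block (adjusted p = 0.0139), a call lost without siCENPF 1, siFOXM1 1 or siCENPF+siFOXM1 1, with adjusted p up to 0.0643, and without number 1 (0.281) or 3 (0.0996). E2F8, its relative (chromosome 11, 19224063 to 19241620), had 88.6 to 142 normalized counts over the 12 libraries from 68 to 234 reads. Its groups overlapped throughout, and with both siRNAs the difference from siNeg was -0.12 (interval with the block -0.44 to 0.20).

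**Figure D3:**
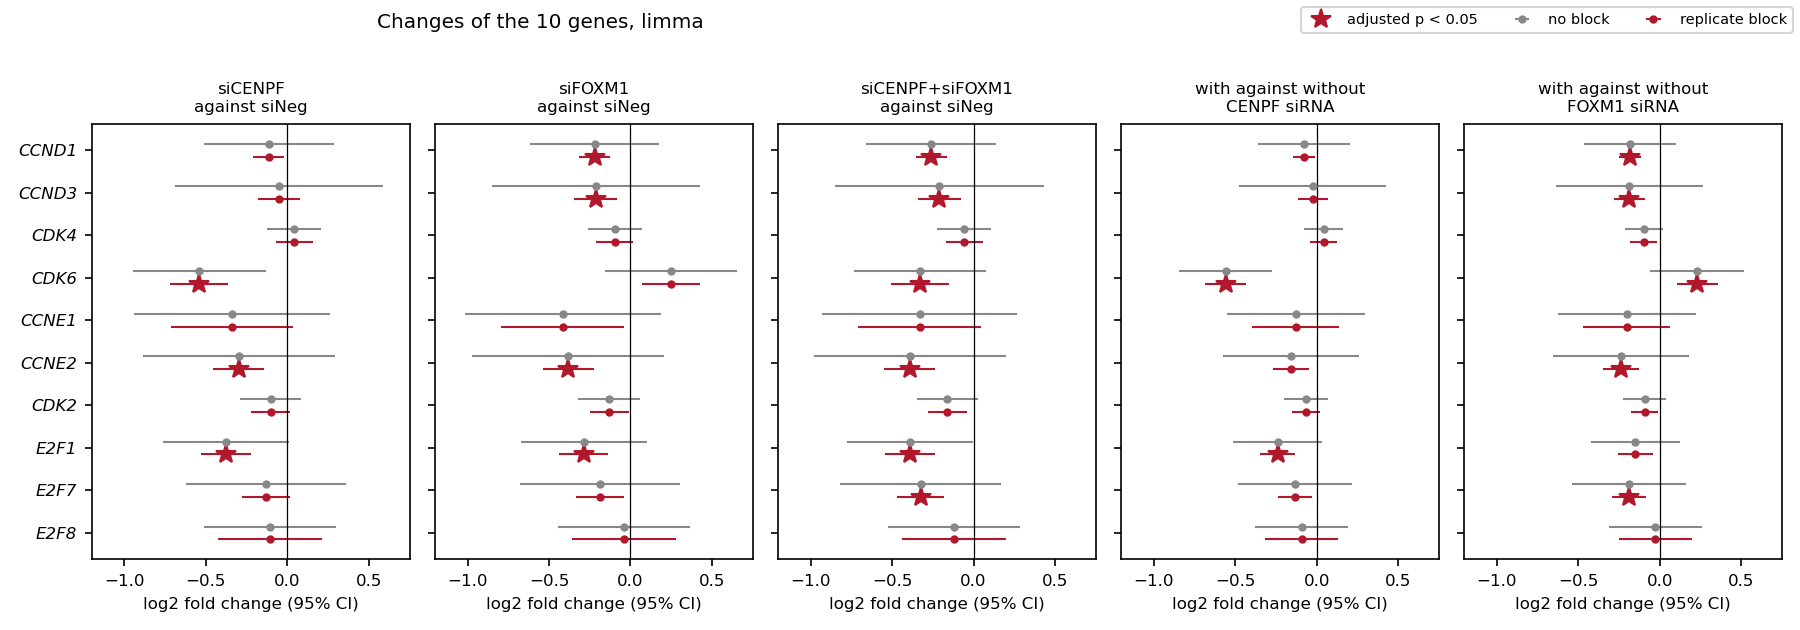
Log2 fold change (x axis) of the 10 genes (y axis) in 5 comparisons, with 95% intervals from limma without the replicate block (grey) and with it (red), and stars where the adjusted p was under 0.05. No grey interval carries a star, and CDK6 is the only gene with stars on both sides of 0, lower with CENPF siRNA and higher with FOXM1 siRNA.

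Taking the 10 members as a list, 9 were below 0 in siCENPF against siNeg with a median log2 difference of -0.12. In siFOXM1 9 were below 0, with a median of -0.20, and in siCENPF+siFOXM1 all 10 were, with a median of -0.29. With 1 library left out the medians ran from -0.31 (without siCENPF 1) to -0.03 (without siCENPF 2, with 6 members below 0) in siCENPF, from -0.32 (without siNeg 2) to -0.11 (without siFOXM1 2) in siFOXM1, and from -0.41 (without siNeg 2) to -0.15 (without siCENPF+siFOXM1 2) with both. Other moves of over 1.5 times were -0.27 in siCENPF without siNeg 2, -0.11 in siFOXM1 without siNeg 1, and -0.19 and -0.18 with both without siNeg 1 and siNeg 3. Over all genes tested the medians were -0.0006, -0.0006 and -0.0026, with 50.2%, 50.2% and 50.7% below 0. When CENPF siRNA was added to FOXM1 siRNA the members' median was -0.03, and when FOXM1 siRNA was added to CENPF siRNA it was -0.08 with 0 members called by limma with or without the block.

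Genes that E2F factors are known to activate, most of them for DNA replication, were mostly below siNeg in the 3 groups. Of 22 such genes, 21 were below 0 in siCENPF against siNeg (median -0.20), 20 in siFOXM1 (median -0.21) and 22 in siCENPF+siFOXM1 (median -0.29). With the block 10, 12 and 16 of them fell and 0 rose, where 1.66%, 4.23% and 3.72% of all genes were called lower. With 1 library left out, the counts with the block ran from 7 (without siNeg 3) to 12, from 6 (without siNeg 3 or siFOXM1 3) to 15 and from 11 (without siCENPF+siFOXM1 2) to 19. They were 3, 7 and 13 without number 1, and 6, 6 and 10 without number 3. The medians without the block moved to -0.08, -0.09 and -0.16 without siNeg 3. In limma without the block only CCNA2 passed, in siFOXM1 (adjusted p = 0.0054) and siCENPF+siFOXM1 (0.0104), the second call being lost without siNeg 2, siNeg 3 or siCENPF+siFOXM1 1 (up to 0.0726). Both were lost without number 1 (0.065 and 0.136) or 3 (0.559 and 0.792). In siCENPF the smallest adjusted p belonged to GINS1, a subunit of the replicative helicase complex (-0.51, adjusted p = 0.000525 with the block), CDT1, which licenses replication origins (-0.36, 0.000836), and the helicase subunits MCM3 (-0.27, 0.00101) and MCM5 (-0.28, 0.0022). GINS1 had 721, 556 and 768 normalized counts in siNeg and 422, 470 and 540 in siCENPF. It was lower without overlap, as were 4.44% of all genes.

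In siFOXM1 the leading E2F target genes were CCNA2, MCM6, RRM2 and ORC1. CCNA2, the cyclin A2 gene, had 3407, 3944 and 3719 normalized counts in siNeg and 3179, 3735 and 3653 in siCENPF, against 2307, 2378 and 2457 in siFOXM1. Its counts in siCENPF+siFOXM1 were 2251, 2617 and 2541. The 6 libraries with FOXM1 siRNA were all below the 6 without it, as for 0.942% of all genes. The fall was 0.57 on the log2 scale (limma adjusted p = 0.00061 without the block). That call was kept with any 1 library left out, and was lost without the 4 libraries of number 3 (adjusted p = 0.289). With against without CENPF siRNA, CCNA2 differed by -0.01 (SE 0.0362 and adjusted p = 0.944 with the block). MCM6, another helicase subunit, fell by 0.39 in siFOXM1 with the block (adjusted p = 2.05e-05), RRM2, a subunit of ribonucleotide reductase, by 0.35 (4.84e-05), and ORC1, of the origin recognition complex, by 0.53 (0.000432).

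**Figure D4:**
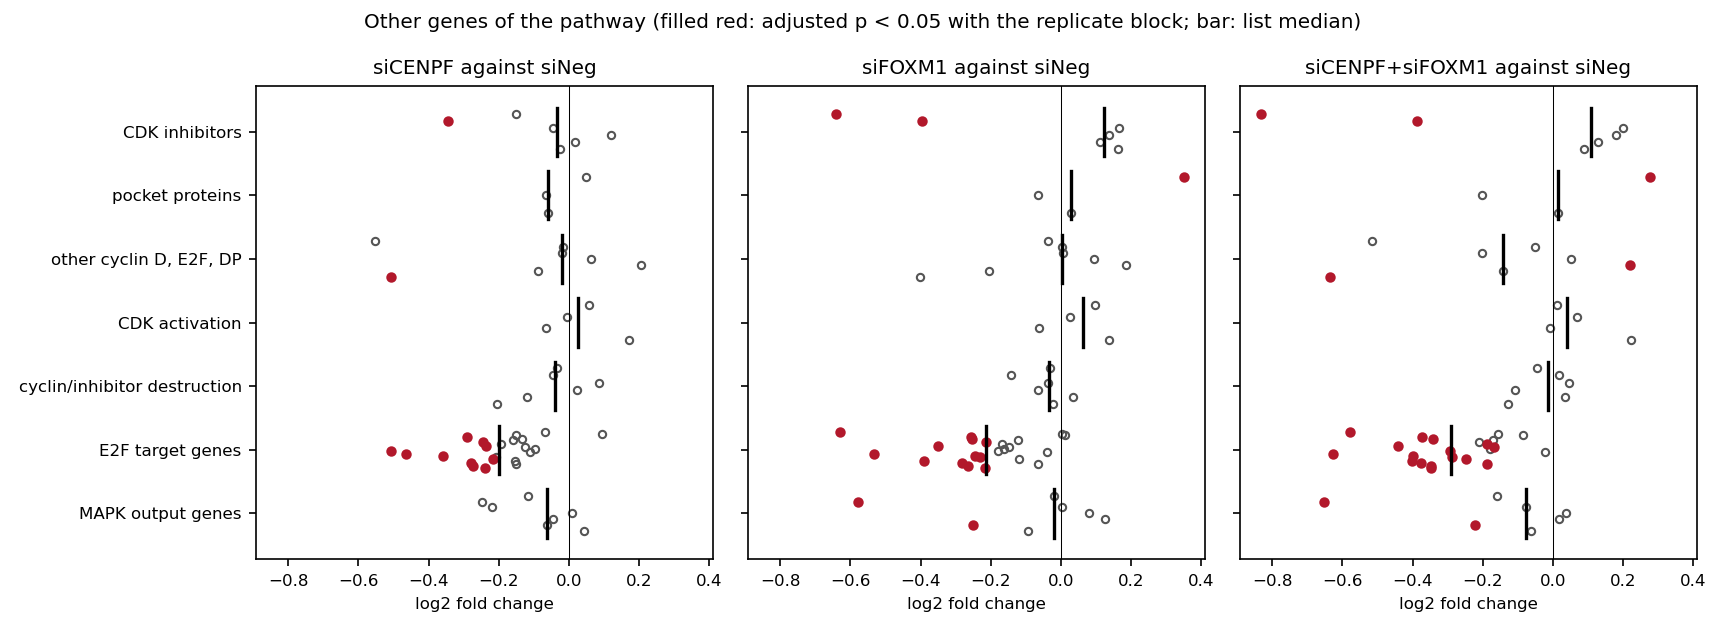
Log2 fold change (x axis) of 7 lists of other genes of the pathway (y axis) in the 3 siRNA groups against siNeg, with 1 point per gene, filled red where the adjusted p with the replicate block was under 0.05, and a bar for each list's median. The E2F target genes lie below 0 as a group with medians of -0.20, -0.21 and -0.29, and the medians of the other lists lie between -0.14 and 0.12.

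Among the CDK inhibitors, 6 of 7 were tested (CDKN1C was too low), and 1 passed without the block. CDKN2D, the p19 inhibitor of CDK4 and CDK6, had 356, 395 and 375 normalized counts in siNeg, 208, 283 and 234 in siFOXM1, followed by 207, 219 and 205 in siCENPF+siFOXM1. Neither group overlapped siNeg, which held for 6.83% and 6.58% of all genes in the lower direction. CDKN2D fell by 0.64 in siFOXM1 (limma adjusted p = 0.0261) and by 0.83 in siCENPF+siFOXM1 (0.00622). The first call was lost with 5 of the libraries left out in turn, siNeg 1, 2 and 3 and siFOXM1 1 and 3 (adjusted p up to 0.13), and the second was kept with each left out. Both were lost without number 1 (0.423 and 0.167) or 3 (0.946 and 0.789). CDKN2C, the p18 inhibitor of the same kinases, fell with the block in all 3 groups, by 0.35 in siCENPF (adjusted p = 0.0122), 0.40 in siFOXM1 (0.00215) and 0.39 in siCENPF+siFOXM1 (0.00299). With the block 1.66%, 4.23% and 3.72% of all genes were called lower, and without it CDKN2C passed in none of the 3. CDKN1A, the p21 inhibitor, rose by 0.14 with against without FOXM1 siRNA with the block (adjusted p = 0.0184) and not in any single group. Whether the CDKN2C and CDKN1A calls hold with a library or number left out is not given here.

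Of the 3 pocket proteins, RBL2 (p130, which represses E2F targets in resting cells) rose with the block by 0.35 in siFOXM1 (adjusted p = 0.00625) and 0.28 in siCENPF+siFOXM1 (0.037). With the block 4.48% and 4.18% of all genes were called higher there. The RBL2 libraries of both groups overlapped siNeg, and limma without the block called 0 pocket proteins. RB1 and RBL1 passed no test. Among the other cyclin D, E2F and DP factors, 7 of 8 were tested, CCND2 being too low. E2F2, another activator, had 185, 192 and 266 normalized counts in siNeg and 145, 102 and 220 in siCENPF. With the block it fell by 0.51 in siCENPF (adjusted p = 0.0299) and 0.64 in siCENPF+siFOXM1 (0.00366), where 1.66% and 3.72% of all genes were called lower. E2F4, which mainly works as a repressor with the pocket proteins, rose by 0.22 in siCENPF+siFOXM1 (adjusted p = 0.0281 with the block, 4.18% of all genes called higher). Its normalized counts were 959, 940 and 961 in siNeg and 1081, 1052 and 1204 in siCENPF+siFOXM1. The counts were also above siNeg in siCENPF (1094, 1100 and 1107) and siFOXM1 (1095, 1044 and 1113), without a call. The rise was thus not particular to the combination. Without the block 0 of the 7 were called against siNeg. Whether the RBL2, E2F2 and E2F4 calls hold with a library or number left out is not given here. The 4 genes of CDK activation and the 6 of cyclin and inhibitor destruction, SKP2 and FBXW7 among them, gave 0 calls with or without the block in the 3 comparisons with siNeg.

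In the authors' deposited tables, no member had an adjusted p under 0.05. The smallest p-values there, before adjustment over genes, were those of CDK6 and E2F1. The log2 fold change of CDK6 was -0.51 in siCENPF (unadjusted p = 0.0147 by edgeR in the authors' deposited table, adjusted p = 0.9999). It was -0.33 in siCENPF+siFOXM1, and that of E2F1 was -0.39 and -0.40. Those tables and the tests above share the same libraries.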

How the data were processed

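The members and gene lists were chosen with earlier results of these data known. TopHat, Trimmomatic, edgeR, bcl2fastq and the hg38 genome are named in the submitters' processing notes, without versions, and strand use in counting is not stated there. The authors deposited normalized counts (a signal on a count scale, 14862 genes), FPKM (60279 genes) and, per the file headers, 3 edgeR tables with CPM, log2 fold changes, a test score and p-values. Gene lengths behind the deposited FPKM were 1.21 to 4.25 times the merged exons of members, so levels between genes used CPM per kilobase of merged exons in GENCODE 29.

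The main test was limma 3.58.1 (R 4.3.3; trended, robust) on log2(normalized count + 1) over all 12 libraries and 4 groups, for the 14857 genes that reached 10 normalized counts in 3 or more libraries, two-sided, with Benjamini-Hochberg adjustment over all of them and a threshold of 0.05. It was tested on simulated counts that held no effect of replicate number. The fit with the block was not tested in this way. Fold changes are on the log2(value + 1) scale. Same-numbered libraries deviated together (correlation of deviations from group means 0.272 to 0.639 in 18 same-number pairs, -0.51 to 0.0248 in 36 others), so the numbers, which come from the labels, pair the libraries, and values with the block are given beside the results. Reads were recovered from the deposited CPM (100% whole within 0.01 reads, 14150 genes) for edgeR 4.0.16 and DESeq2 1.42.0. Other alternatives were a pseudocount of 10, no filter, FPKM (log2(FPKM + 0.5)), and leaving out each library and each number. Leaving these out with the block or for the lists, and lengths from GENCODE 29, were chosen after seeing the data. Named genes were the members, up to 4 genes per list by smallest adjusted p, and the 5 genes most correlated with CDK6.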

Additional observations from a re-analysis of the deposited data

How the results depend on the processing

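The result that moved most was the replicate block. Over all genes, limma called 50 in siCENPF, 98 in siFOXM1 and 68 in siCENPF+siFOXM1 against siNeg, 1 for CENPF siRNA added to FOXM1 siRNA, 12 for the reverse, 28 with against without CENPF siRNA, 98 with against without FOXM1 siRNA, and 0 for the interaction (353 at an unadjusted p under 0.05). In the same order limma with the block called 671, 1295, 1174, 44, 217, 627, 1593 and 125, edgeR with the block 711, 1324, 1250, 42, 229, 646, 1633 and 117, and DESeq2 132, 251, 169, 4, 32, 99, 227 and 22. The FPKM table gave 16 with against without CENPF siRNA. With 1 library or number left out the counts ran from 1 to 48, 2 to 112, 3 to 86, 1 to 1, 0 to 14, 1 to 27, 4 to 130 and 0 to 3, lowest without number 1 or 3.

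Members called went from 0 to 3, 4, 6, 1, 0, 2, 5 and 0 with the block in limma, and were the same in number in edgeR with the block. With against without CENPF siRNA, DESeq2 and limma without number 2 each called 1 member, CDK6 (0 to 1 over the libraries and numbers left out). Of 1600 member values without the block, 2 changed their side of the threshold and 119 uncalled ones changed sign. No called value changed sign. Of 21 member calls with the block, 12 were kept with any 1 library left out and 5 with any 1 number left out, while 10 calls appeared with the block only when 1 library was left out and 2 when a number was. In the settings other than the main one, the median log2 difference of all genes lay at most 0.0188 from 0 (the interaction on the FPKM table). Depth limits CCNE1 and E2F8, whose reads were fewest. Groups of 3 libraries are too small for a test of outlying libraries.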

Other observations

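The genes known to respond to MAPK signalling upstream of cyclin D (MYC, JUN, FOSL1, DUSP6, SPRY4, ETV4 and ETV5) gave 0 calls in limma without the block. With the replicate block 2 of the 7 fell in both groups given FOXM1 siRNA, where 4.23% of all genes were called lower in siFOXM1 and 3.72% in siCENPF+siFOXM1. In siFOXM1 the count was 1 without siFOXM1 2, siFOXM1 3 or number 3. In siCENPF+siFOXM1 it was 1 without siCENPF+siFOXM1 1 or number 3, and 0 without number 1. JUN, a subunit of the AP-1 transcription factor, had normalized counts of 5241, 3984 and 4894 in siNeg and 4411, 3406 and 4031 in siFOXM1, a fall of 0.25 on the log2 scale (adjusted p = 0.000988 with the block). It fell by 0.22 in siCENPF+siFOXM1 (adjusted p = 0.00395 with the block). ETV4, an ETS factor, had 296, 247 and 289 in siNeg against 213, 158 and 188 in siFOXM1. The siCENPF+siFOXM1 libraries had 154, 158 and 221. Neither group overlapped siNeg, which held for 6.83% and 6.58% of all genes in the lower direction. ETV4 fell by 0.58 and 0.65 (adjusted p = 0.0043 and 0.00155 with the block). The median of the 7 genes was -0.02 in siFOXM1 and -0.08 in siCENPF+siFOXM1, and with CENPF siRNA alone 0 of the 7 were called.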
